A study of Saccharomyces cerevisiae with 60 samples.

Results

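Budding yeast carries 275 annotated nuclear tRNA genes, and the ChIP-seq signal at single tRNA genes is described here in 20 groups of libraries. All 275 genes of the R64 annotation were considered, and 30 of them were left out, 23 on chromosome IV and 7 on chromosome XV, because they lie to the right of the sites where control constructs had been inserted. The signal of each of the other 245 genes is the mean of the 10 windows of 50 bp centred on it, a stretch of 500 bp, after smoothing by a moving median over 10 windows and scaling each library by its own 20th percentile. A signal of 1 is thus the 20th percentile of a library, which the study took as background, and lies below the signal of a typical bin. 3 of the 245 genes held almost no reads in any library, so that levels and tests are given for 242 genes. The annotation used here gives a symbol to 41 of the 245 genes and no anticodon to any. From the symbols, 34 genes could be put into families that share an amino acid, and most of the other 208 genes are called by their locus tags and positions.

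tRNA genes are short and are transcribed by RNA polymerase III. TFIIIC binds the internal A and B boxes of the gene and recruits TFIIIB, which brings in the polymerase. These genes are among the most heavily transcribed loci of a growing yeast cell, and in ChIP experiments such loci often show signal for proteins that are not thought to bind them, which makes them a usual check on the background of an immunoprecipitation.

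The study asked how well signal at target sites can be told from such background when the control cells express an unrelated tagged protein, bacterial LexA, in place of no tag. All cells were of the W303 background and each group had 3 libraries. The target groups from unsynchronized cultures were Fkh1-MYC (strain MPy166), Fkh1-FLAG (OAy1100), Fkh1-MYC (MOP) (MPy108) and Fkh1-FLAG (FLOP) (MPy54). Fkh1 is a forkhead transcription factor that also acts at replication origins. The α-factor-arrested target groups were G1 Fkh1-MYC (MOP) and G1 Fkh1-FLAG (FLOP), of the same strains, with G1 Orc1-HA (HOP) (MPy199), G1 Mcm4-HA (HOP) (MPy184) and G1 Sir2-FLAG (FLOP) (YHy29). Orc1 is a subunit of the origin recognition complex, Mcm4 a subunit of the replicative helicase and Sir2 a histone deacetylase of silent chromatin. In fkh1-dbm-MYC (MPy169) and fkh1-dbm-FLAG (MPy172), both unsynchronized, the tagged Fkh1 carries a mutated DNA-binding domain. The LexA groups were MOP (MPy105), FLOP (MPy35) and HOP (MPy39), each also arrested as G1 MOP, G1 FLOP and G1 HOP. They express LexA-13xMYC from the ADH1 promoter or LexA-3xFLAG from the TEF1 promoter at ADE2, or LexA-3xHA from the ADH1 promoter at TRP1. The untagged strain SSY161 was the reference with anti-MYC, anti-FLAG and anti-HA. The anti-HA groups from unsynchronized cells were precipitated with the antibodies 12CA5 and 16B12 together and the G1 groups with 12CA5 alone, so HOP was not compared between cultures. The labels name 1 strain for each genotype, so that a change of genotype and any other difference between strains cannot be told apart. They do not say that replicates came from separate cultures, so the p-values measure the spread between these libraries, which may be technical.

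The windows of a library summed to between 2116658 and 44263661 counts, with a median of 18237294 over the 60 libraries. The 20th percentile was between 6 and 128 counts per window, and no 2 libraries held identical values. Many tRNA genes of a family have near-identical copies elsewhere, and how reads that fit several places were assigned is not given in the sources used here. The reads of 150 bp and the interval of 500 bp reach past the gene on both sides, so that the values of single genes rest in part on flanking sequence.

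The signal of the median tRNA gene lay between 0.955 in G1 Mcm4-HA (HOP) and 1.70 in G1 MOP, but single genes spread widely around these medians in some groups and little in others. The SD of the log2 signal over the 242 genes was lowest in fkh1-dbm-MYC and MOP, at 0.24 in both, and highest in G1 Fkh1-MYC (MOP), at 0.66. The gene at the 90th percentile held 2.94 times the signal of the gene at the 10th percentile in G1 Fkh1-MYC (MOP), 1.41 times in fkh1-dbm-MYC and 1.41 times in untagged anti-MYC. In every group the other 500 bp bins of the genome had a larger SD than the tRNA genes, between 0.38 and 0.77. The interquartile range, on which extreme bins weigh less, gave another order. It was wider for tRNA genes in G1 Fkh1-MYC (MOP), 0.794 against 0.712, Fkh1-MYC, 0.399 against 0.369, and Fkh1-FLAG (FLOP), 0.354 against 0.345. In Fkh1-FLAG it was 0.358 for both, and in the other groups it was narrower for tRNA genes. Part of the spread was scatter between replicates. The share of the variance over genes and libraries that lay between genes was 93.6% in Fkh1-MYC, 47.3% in MOP and 36.5% in untagged anti-MYC. Across the 242 genes, replicate libraries correlated with Pearson's r of 0.924 to 0.947 in Fkh1-MYC and of 0.328 to 0.411 in untagged anti-MYC, as a description, since genes of one library share its depth and base composition. The order of single genes thus varied between the libraries of untagged anti-MYC and was much the same in each library of Fkh1-MYC.

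**Figure D1:**
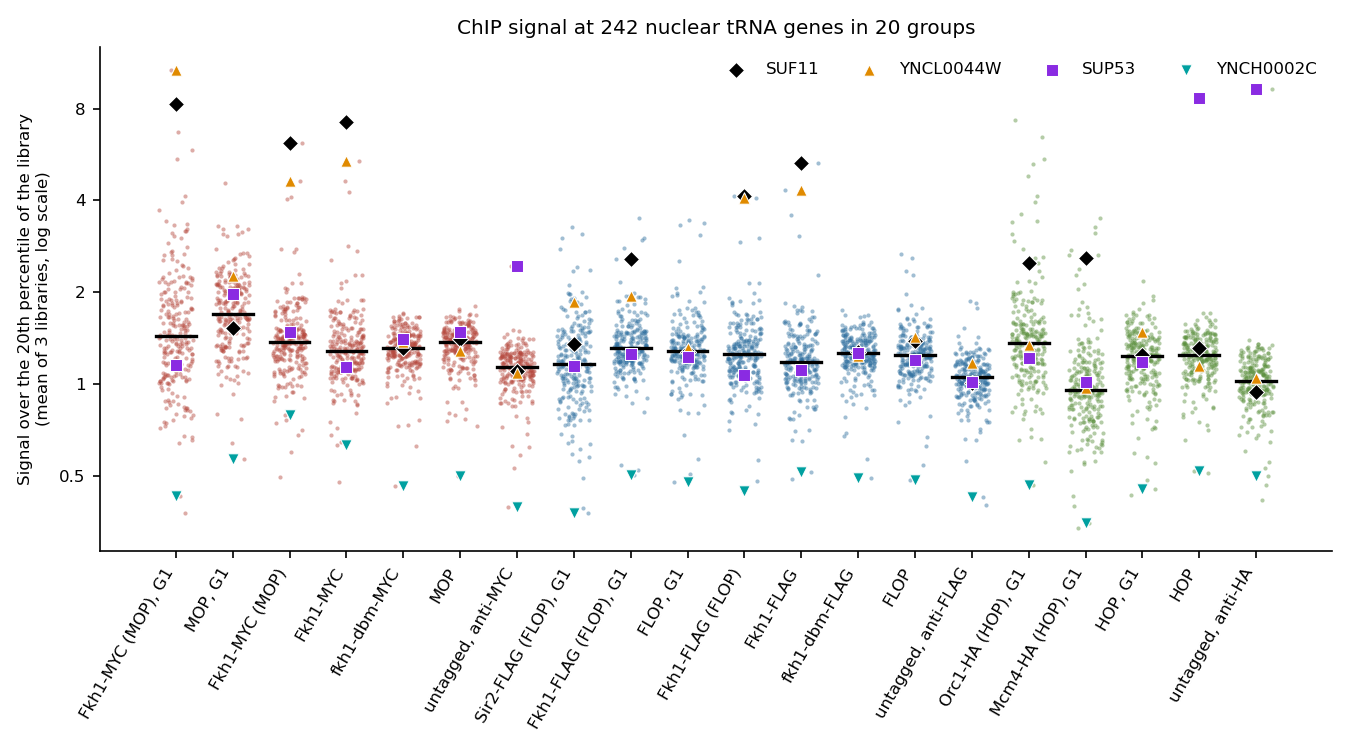
Signal of each of 242 tRNA genes (y axis, log scale, mean of 3 libraries, in units of the 20th percentile of the library) in each of the 20 groups (x axis), coloured by antibody, red for anti-MYC, blue for anti-FLAG and green for anti-HA. Black lines mark the median gene, which lay between 0.955 and 1.70, and labelled points mark SUF11, YNCL0044W, SUP53 and YNCH0002C, which leave the bulk of the genes in named groups.

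Genes that stood at least 1.5 times above the median gene in all 3 libraries numbered 25 in G1 Fkh1-MYC (MOP), 20 in G1 Mcm4-HA (HOP) and 18 in G1 Orc1-HA (HOP). There was no such gene in fkh1-dbm-MYC, fkh1-dbm-FLAG, MOP or G1 HOP. In G1 Fkh1-MYC (MOP), 17 genes stood at least 1.5 times below the median in all 3 libraries. A mean signal above 2 was reached by 76 genes in G1 MOP, 56 genes in G1 Fkh1-MYC (MOP), 1 gene in untagged anti-MYC, untagged anti-HA, HOP and G1 HOP each, and none in either fkh1-dbm group, MOP or untagged anti-FLAG. By the measure relative to the median gene, G1 MOP had 10 genes.

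The 6 genes with the highest mean level over the 20 groups, relative to the median gene, were SUF11, YNCL0044W, YNCL0009C, YNCN0004W, YNCL0040W and YNCK0011C. SUF11, on chromosome XV at 464450 to 464551 on the plus strand, is a proline tRNA gene first known as a frameshift suppressor, and it overlaps the annotated frame YOR072W-B. It stood 0.72 above the median gene on the log2 scale, averaged over groups, but this mean covers a range that ran from -0.16 in G1 MOP to 2.53 in G1 Fkh1-MYC (MOP), and the gene was above the median in 14 groups only. YNCL0044W, on chromosome XII at 797178 to 797249, begins 181 bp from the start of NUP2, which encodes a nucleoporin. Its mean was 0.62 with a highest value of 2.90 in G1 Fkh1-MYC (MOP). In that group the highest 50 bp window lay 125 bp to the right of the centre of both genes, with a signal of 13.2 at SUF11 and 16.7 at YNCL0044W. The central 200 bp had 10.2 at SUF11 and 13.1 at YNCL0044W, and the signal 750 to 1000 bp away was 3.30 at SUF11 and 2.17 at YNCL0044W. At each gene the enrichment thus covered the gene centre and fell off with distance, with its highest window beside the gene. YNCL0009C had a mean of 0.54, YNCN0004W of 0.54, YNCL0040W of 0.49 and YNCK0011C of 0.48. Only YNCB0016W and YNCL0004C were above the median gene in 20 of 20 groups. YNCB0016W had a mean of 0.45 and ran from 0.01 to 1.41, and YNCL0004C was the more even, with a mean of 0.14 and a range of 0.01 to 0.31.

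The 6 lowest genes were below the median gene in all 20 groups. YNCH0002C, on chromosome VIII at 85298 to 85371, had the lowest mean, -1.38, with signals of 0.649, 0.527 and 0.713 in Fkh1-MYC and 0.497, 0.532 and 0.668 in G1 MOP. Over all libraries, 4 of its 10 windows had a mean signal under 0.3. YNCI0009W, on chromosome IX at 325748, had a mean of -1.26 and 3 of 10 such windows. YNCB0007W had a mean of -0.65 and 2 of 10 such windows, and YNCG0032W a mean of -0.97 and 1 of 10. YNCK0019W had a mean of -0.86. TRT2, a threonine tRNA gene on chromosome XI at 46735 to 46806 that is known as a barrier between the repressive chromatin of STE6 and CBT1, had a mean of -0.71. The start of CBT1 is 351 bp from TRT2.

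The 3 genes without reads lie in such empty stretches. YNCC0008W, at 149920 on chromosome III, had 0 counts in all 60 libraries, and YNCC0009C, at 151284, had 57 counts in all, with at most 4 in a library. Both fall in a run of 2900 bp, from 148651 to 151550, where the mean signal was under 0.05. YNCI0008C, at 324303 on chromosome IX, had 12 counts in all and lies in a run of 4850 bp from 320851 to 325700, which ends just before YNCI0009W. Every library, whatever its antibody, was nearly empty at these 3 genes, so none of them could be tested.

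SUP53 was high in both unsynchronized anti-HA groups, with and without a tagged protein. SUP53 is a leucine tRNA gene of chromosome III, at 90859 to 90972, and its end lies 352 bp from LEU2, a gene of leucine synthesis that is a common plasmid marker. The signals were 10.3, 7.53 and 8.18 in HOP, against 7.41, 11.4 and 9.0 in untagged anti-HA. They were 2.93, 2.39 and 2.0 in untagged anti-MYC and 1.08, 0.937 and 1.04 in untagged anti-FLAG. The 3 libraries of untagged anti-HA and those of HOP were thus high, overlapped each other, and lay apart from every other group, G1 HOP included, where the signals were 2.01, 1.09 and 0.446. The gene is the left edge of a block of raised signal from 90701 to 92900, 2200 bp in length, that also covers LEU2. The mean signal of the block was 10.4 ± 2.08 in HOP, 11.7 ± 2.5 in untagged anti-HA and 4.25 ± 2.1 in untagged anti-MYC (SD, n = 3 each), while in the other 17 groups it was 1.09 to 1.78. In the 1 kb to the left of the block, untagged anti-HA had 1.53 ± 0.037 (SD, n = 3). The highest window lay 825 bp to the right of the gene in untagged anti-HA, with a signal of 14.3. The values at SUP53 in these groups therefore describe the block and not the tRNA gene, and its source was not tested.

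The median profile over the 242 genes showed whether signal peaked on the gene itself. In G1 MOP the median of the central 200 bp was 2.01 and that of the flanks 1.24, and the centre was above the flanks at 223 of 242 genes. In fkh1-dbm-MYC the medians were 1.45 and 1.13, with 206 genes above their flanks, and in fkh1-dbm-FLAG 1.40 and 1.13, with 192 genes. MOP had 1.44 and 1.23 with 186 genes, FLOP 1.36 and 1.14 with 197 genes, and HOP 1.39 and 1.18 with 189 genes. Without a tag there was no such peak. Untagged anti-FLAG had 1.09 and 1.11 with 108 genes above their flanks, untagged anti-HA 1.08 and 1.19 with 95 genes, and untagged anti-MYC 1.08 and 1.35 with 38 genes. At most tRNA genes untagged anti-MYC thus had a dip. The log2 ratio of centre to flanks, taken over the median profile, was -0.65, -0.28 and -0.11 in the 3 libraries of untagged anti-MYC, all below those of MOP, at 0.23, 0.00 and 0.42. G1 Mcm4-HA (HOP) also had a dip, with a centre of 0.977 and flanks of 1.19, and 62 genes above their flanks. Its libraries had ratios of -0.28, -0.18 and -0.28, against 0.27, 0.14 and -0.01 in G1 HOP. In Fkh1-FLAG, whose centre was 1.22 and flanks 1.15, 139 genes were above their flanks, and in G1 Fkh1-MYC (MOP) 142 genes were.

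**Figure D2:**
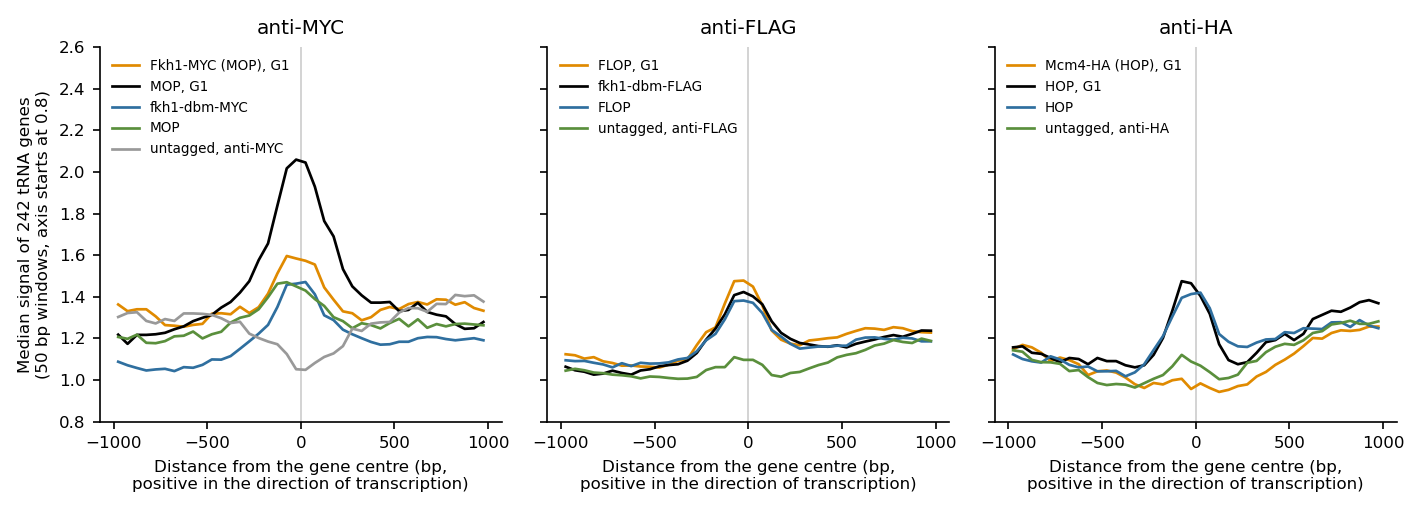
Median signal of the 242 tRNA genes (y axis, in units of the 20th percentile of the library, axis from 0.8) in 50 bp windows by distance from the gene centre (x axis, bp), with 1 line per group shown as the mean of 3 libraries. Fkh1-MYC, Fkh1-MYC (MOP), Fkh1-FLAG, Fkh1-FLAG (FLOP), G1 Fkh1-FLAG (FLOP), G1 Orc1-HA (HOP) and G1 Sir2-FLAG (FLOP) are not drawn. The line of G1 MOP rises to the highest centre, the LexA and fkh1-dbm groups have lower peaks, and untagged anti-MYC and G1 Mcm4-HA (HOP) dip at the centre.

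Amino acid families differed little from each other. The 34 genes grouped by symbol fall into 7 families, 7 glycine, 3 leucine, 7 proline, 4 serine, 7 tyrosine, 3 elongator methionine and 3 initiator methionine genes. The serine family had the highest median of those with at least 4 genes, 0.17 above the median tRNA gene on the log2 scale and above it in 16 of 20 groups. Its members SUP61, SUP19, SUP17 and SUP16 lay between 0.01 at SUP17 and 0.29 at SUP19. The tyrosine family had the lowest, -0.16, and was above the median gene in 3 of 20 groups, with members between -0.20 at SUP6 and 0.12 at SUP8. The glycine genes had a median of 0.10 and ran from -0.31 at SUF1 to 0.19 at SUF6, and the leucine genes had a median of 0.11. Both families were above the median tRNA gene in 12 groups. The initiator methionine genes had a median of -0.09 and the elongator methionine genes, EMT3, EMT4 and EMT5, of -0.03. The elongator methionine genes were the most alike, with 0.040 between the highest and the lowest.

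Within the proline family the members lay furthest apart. TRN1 had a mean of -0.26 and SUF11 of 0.72, a range of 0.98, around a family median of 0.02. The share of the variance between named genes that lay between families had a median of -0.3% over the 20 groups, so that a typical group showed no more likeness within a family than between families. The lowest share was -10.4% and the highest 30.5%, in untagged anti-HA. With SUP53 left out, an alternative chosen after seeing the data, the share in untagged anti-HA was 10.9% in place of 30.5%, that in HOP 8.6% in place of 29.5%, that in untagged anti-MYC -10.8% in place of 12.2%, and the highest share in any group 14.3%. The large values thus rested on 1 leucine gene beside LEU2.

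**Figure D3:**
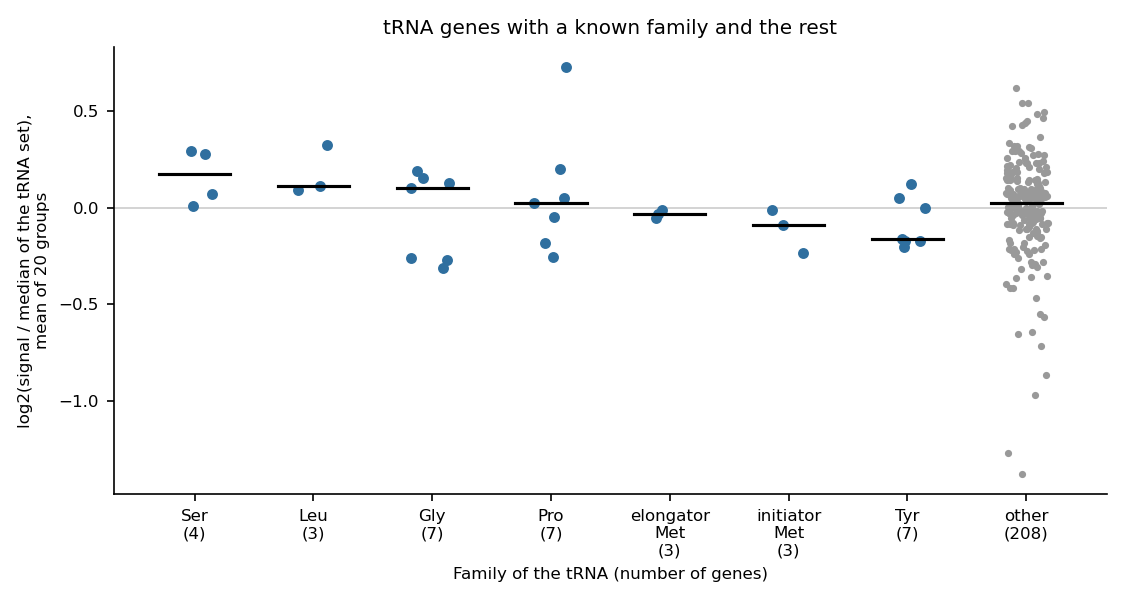
Mean level over the 20 groups of each tRNA gene relative to the median gene (log2 scale) by amino acid family, with 1 point per gene and a line at the family median; the 208 genes outside the families are shown together. Family medians run from -0.16 in tyrosine to 0.17 in serine, well within the spread of the other genes, and SUF11 stands apart at 0.72 in the proline family.

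Place and length went with small differences. The 32 genes of at least 100 bp had a median of 0.10, were above the median gene in 20 of 20 groups and counted 29 genes above it, against 0.002 for the 168 genes of 71 to 74 bp and -0.002 for the 42 genes of 82 to 96 bp. Gene length still accounted for little of the variance between genes, with a median share of 3.0% over groups and a highest share of 7.7%. The 10 genes within 500 bp of another tRNA gene had a median of 0.13 and were above the median gene in 19 of 20 groups, against 0.02 for the other 232 genes. The 114 genes within 500 bp of the start of a protein-coding gene had a median of -0.01, against 0.06 for the other 128. The 128 genes on the plus strand had 0.03 and the 114 on the minus strand 0.02. The neighbouring genes share reads, since their intervals overlap, and none of these differences was tested.

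The level of a tRNA gene went with its chromosome most in G1 MOP. The share of the variance that lay between chromosomes was 25.4% in that group, 12.9% in untagged anti-FLAG, 12.8% in G1 Fkh1-MYC (MOP), 9.5% in G1 HOP and 8.5% in HOP, with a median of 4.0% over the groups. The 21 tRNA genes of chromosome XII had a median of 0.57 above that of all tRNA genes in G1 MOP and of 0.60 in G1 Fkh1-MYC (MOP). All 500 bp bins of chromosome XII had medians of 0.46 and 0.49 above those of all bins in these groups, so that the median bin of the chromosome was offset in the same direction. The 10 genes of chromosome VI had -0.48 in G1 MOP and -0.43 in G1 Fkh1-MYC (MOP), beside -0.40 and -0.37 for all bins of that chromosome. The 11 genes of chromosome VIII had -0.33 in G1 MOP, beside -0.01 for all bins of chromosome VIII. On chromosomes XII and VI the offset in the arrested MYC groups was thus not limited to tRNA genes.

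Other genes of RNA polymerase III were near the level of tRNA genes, apart from SCR1 and the 5S rRNA genes. SCR1, which encodes the RNA of the signal recognition particle, had a mean of 0.93 and was above the median tRNA gene in 19 of 20 groups. SNR6, the gene of U6 snRNA, had 0.17, SNR52, a box C/D snoRNA gene, 0.15, RPR1, the RNA of RNase P, 0.07, and RNA170 -0.07. RDN5-1, the first copy of the 5S gene in the rDNA array of chromosome XII, had 7.82, which cannot be set beside a gene of a single copy because the array holds many more copies than the reference sequence. RDN5-2 had 6.70, and the 4 copies RDN5-3, RDN5-4, RDN5-5 and RDN5-6 had 0.54 to 1.24, and reads may be split between near-identical copies.

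The order of the 242 genes was most alike between Fkh1-MYC and Fkh1-FLAG, where Spearman's rho across genes was 0.91, and between fkh1-dbm-MYC and fkh1-dbm-FLAG, where it was 0.89. It was 0.80 between HOP and untagged anti-HA and 0.76 between G1 Orc1-HA (HOP) and G1 Mcm4-HA (HOP). Groups that share LexA were less alike, with 0.49 between FLOP and MOP, 0.42 between MOP and HOP, 0.37 between FLOP and HOP and 0.25 between G1 MOP and MOP. The value was -0.01 between G1 MOP and HOP. These values are descriptions over genes that share base composition and, in part, block structure such as that at SUP53.

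The comparison of LexA-expressing with untagged cells asked what a tagged but unrelated protein adds to the signal at tRNA genes. In FLOP 121 of 242 genes (50%) rose over untagged anti-FLAG and 3 fell, while 6.96% of all features rose and 15.6% fell. The median change was 0.27 on the log2 scale over tRNA genes and -0.05 over all features. In HOP 67 genes (27.7%) rose over untagged anti-HA, beside 1.38% of all features, with medians of 0.30 and -0.01. No tRNA gene fell, beside 0.581% of all features, by edgeR's quasi-likelihood test or by DESeq2, and 0 fell at an unadjusted p under 0.05. In MOP no tRNA gene passed in either direction by edgeR's test over untagged anti-MYC, beside 0.0436% of all features in each direction. The median was 0.30, as large as in HOP, and 50 genes passed an unadjusted p of 0.05, 48 of them higher and 2 lower. DESeq2 called 1 gene, which was higher. The libraries compared were shallow, with at most 4968334 counts in MOP and 4497029 in untagged anti-MYC, against at least 18250930 in FLOP and 21340140 in HOP. Of the 121 genes that rose in FLOP and the 67 that rose in HOP, 34 were the same, 28.1% and 50.7% of the lists. These shares were close to the 27.7% of all tRNA genes that rose in HOP and the 50% that rose in FLOP.

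The largest rise in FLOP was that of the adjoining pair YNCB0015W and YNCB0016W, which lie 11 bp apart on chromosome II from 405878 to 406031 and largely share their reads. YNCB0015W had signals of 2.48, 2.96 and 2.58 in FLOP, against 1.17, 1.25 and 1.34 in untagged anti-FLAG. The groups were well apart, with a log2 change of 1.2 ± 0.091 (SE) and an edgeR adjusted p of 6.14e-21, and YNCB0016W rose by 1.11 ± 0.091 with an adjusted p of 4.45e-19. YNCE0005W, on chromosome V at 86604 and 252 bp from the start of MCM3, which encodes another helicase subunit, went the other way. Its signals were 1.25, 1.18 and 0.989 in FLOP, against 2.09, 1.73 and 1.80 in untagged anti-FLAG, a log2 change of -0.61 ± 0.097 with an adjusted p of 1.56e-07. With an interval of 200 bp the change at YNCE0005W was -0.33 with an adjusted p of 0.0521. In untagged anti-FLAG its highest window, 7.1, lay 625 bp upstream of the gene centre, with 1.6 in the central 200 bp and 2.97 in the flanks. The values over 500 bp may thus take in the edge of signal beside the gene, which was not tested. YNCE0004C, at 61890 on the same chromosome, had 1.27, 1.11 and 1.28 in FLOP, against 1.78, 1.82 and 1.94 in untagged anti-FLAG, a change of -0.57 ± 0.093 (adjusted p = 4.40e-07).

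All 3 genes that fell in FLOP, YNCE0005W, YNCE0004C and YNCE0010W, were called higher in HOP. YNCE0005W had 1.35, 1.43 and 1.21 in HOP, against 0.850, 0.944 and 0.960 in untagged anti-HA, a log2 change of 0.60 (adjusted p = 0.000182), and the change was 0.45 at YNCE0004C (adjusted p = 0.0117) and 0.49 at YNCE0010W (adjusted p = 0.00364). At YNCE0005W the libraries of FLOP and those of HOP overlapped with neither reference. The difference between the tags was tested itself, as HA minus FLAG, and was 1.21 at YNCE0005W (adjusted p = 4.41e-11), 1.02 at YNCE0004C (adjusted p = 9.83e-09) and 1.05 at YNCE0010W (adjusted p = 2.39e-09). Over the 242 genes, 9 had a larger and 12 a smaller LexA effect with HA than with FLAG, beside 13.7% of all features in either direction. For MYC minus FLAG the counts were 4 and 4, beside 6.07% of all features. Both contrasts use the same FLOP and untagged anti-FLAG libraries. The 3 genes were picked for their falls in FLOP, which both contrasts subtract, so their large differences follow in part from that choice.

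Of the genes that rose in HOP, YNCC0001C and YNCE0021C had the largest changes. YNCC0001C, a gene of low signal on chromosome III at 82462, had 0.612, 0.737 and 0.912 in HOP, against 0.512, 0.340 and 0.542 in untagged anti-HA, a log2 change of 0.78 ± 0.17 (adjusted p = 0.00117). The call at YNCC0001C was lost without HOP replicate 3, where the change was 0.62 with an adjusted p of 0.107. YNCE0021C had 1.03, 1.01 and 1.16 in HOP, against 0.607, 0.676 and 0.819 in untagged anti-HA, a change of 0.65 ± 0.13 (adjusted p = 0.000327). The groups did not overlap at either gene, which the naming rule largely ensures. The number of genes that rose in HOP was 23 without untagged anti-HA replicate 1, 39 without HOP replicate 1, 31 without HOP replicate 2 and 26 without HOP replicate 3, and it was 3 with all 60 libraries in 1 fit. In FLOP it was 79 without untagged anti-FLAG replicate 2 and 44 with all libraries in 1 fit, and in MOP it was 3 without untagged anti-MYC replicate 3 and 11 with all libraries in 1 fit. Over all features, 26 rose in HOP, 686 in FLOP and 79 in MOP with all libraries in 1 fit.

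**Figure D4:**
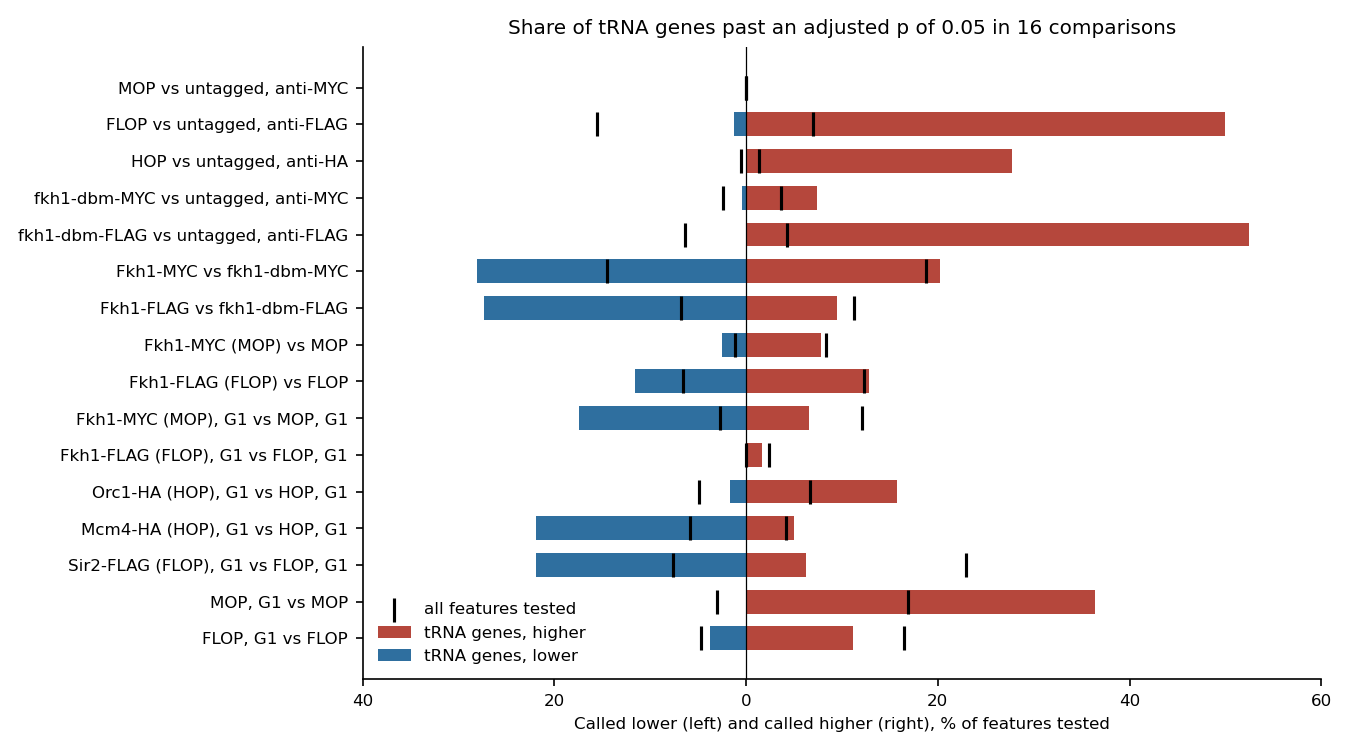
Percentage of the 242 tRNA genes called lower (left) and higher (right) at an adjusted p under 0.05 in each comparison, with a tick at the percentage of all 500 bp features. The bars for fkh1-dbm-FLAG, at 52.5% higher, and FLOP, at 50% higher, reach far past their ticks at 4.24% and 6.96%, while the bar for higher genes in G1 Fkh1-MYC (MOP), at 6.61%, ends below its tick at 12.1%.

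tRNA genes also rose in cells that express the mutant Fkh1. In fkh1-dbm-FLAG 127 genes (52.5%) rose over untagged anti-FLAG, beside 4.24% of all features, and none fell by edgeR or DESeq2, beside 6.37% of all features, with 0 lower at an unadjusted p under 0.05. The median change was 0.29 for tRNA genes and 0.00 for all features. In fkh1-dbm-MYC 18 genes (7.44%) rose over untagged anti-MYC, beside 3.60% of all features, and 1 fell, beside 2.40%. The median was 0.24 for tRNA genes, while all features shifted by -0.12 under this scaling. The fkh1-dbm-MYC libraries summed to 24631197 to 31039155 counts, against 2116658 to 4497029 in untagged anti-MYC. The number that rose in fkh1-dbm-MYC is uncertain. It was 48 without untagged anti-MYC replicate 3 and 9 without replicate 2, it was 4, 2 and 4 without fkh1-dbm-MYC replicates 1, 2 and 3, and it was 47 by DESeq2, where 1367 of all features rose. In fkh1-dbm-FLAG it was 80 without untagged anti-FLAG replicate 2 and 19 with all libraries in 1 fit, where 176 of all features rose. The reference libraries of FLOP and fkh1-dbm-FLAG are the same, so these counts are not independent, but fkh1-dbm-FLAG and HOP share no library, and 38 genes rose in both. These are 29.9% of the 127, beside the 27.7% of all tRNA genes that rose in HOP, and 56.7% of the 67, beside the 52.5% that rose in fkh1-dbm-FLAG, so the overlap was close to the background.

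Of the families, 5 of 7 tyrosine, 6 of 7 proline, 3 of 4 serine, 3 of 3 leucine, 2 of 3 initiator methionine, 2 of 7 glycine and 1 of 3 elongator methionine genes were called higher in fkh1-dbm-FLAG, beside 52.5% of the tRNA genes and 4.24% of all features. All 10 genes with a close tRNA neighbour rose there too, and 9 of the 10 rose in FLOP, beside 50% of the tRNA genes and 6.96% of all features. These 10 genes lie in adjoining pairs whose intervals overlap and share reads, so they are not 10 separate observations. The largest changes in fkh1-dbm-FLAG were at the 96 bp genes YNCK0021W and YNCD0003W. YNCK0021W, on chromosome XI at 578965, had 1.5, 1.45 and 1.42 in fkh1-dbm-FLAG, against 0.912, 0.912 and 0.925 in untagged anti-FLAG, a log2 change of 0.75 ± 0.092 (adjusted p = 2.42e-09). YNCD0003W, on chromosome IV at 359577, had 1.38, 1.36 and 1.44 in fkh1-dbm-FLAG, against 0.833, 0.911 and 0.921 in untagged anti-FLAG, a change of 0.75 ± 0.095 (adjusted p = 8.67e-09). The 3 libraries within each group lay close together, and the lack of overlap between groups follows largely from the rule by which both genes were named.

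In fkh1-dbm-MYC the largest rise was at YNCC0014W, a gene of chromosome III at 295484 that lies 1163 bp from HMRA1, in the silent mating-type locus HMR. Its signals were 1.67, 1.67 and 1.53 in fkh1-dbm-MYC, against 0.458, 0.817 and 1.05 in untagged anti-MYC, a log2 change of 1.02 ± 0.20 (adjusted p = 0.00696). That call was lost without untagged anti-MYC replicate 2, with a change of 0.94 (adjusted p = 0.0516), or without fkh1-dbm-MYC replicate 2, with a change of 0.98 (adjusted p = 0.0566). YNCF0008C, on chromosome VI at 180974, had 1.52, 1.52 and 1.65 in fkh1-dbm-MYC, against 0.833, 0.948 and 0.824 in untagged anti-MYC, a change of 0.94 ± 0.16 (adjusted p = 0.00229). The groups did not overlap at either gene, which the naming rule largely ensures. The 1 gene that fell was SUP53, with 1.44, 1.47 and 1.3 in fkh1-dbm-MYC, against 2.93, 2.39 and 2.0 in untagged anti-MYC, a change of -0.87 ± 0.15 (adjusted p = 0.00252). With an interval of 200 bp, which holds less of the block at LEU2, the change at SUP53 was -0.28 (adjusted p = 0.383).

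Intact Fkh1 over the DNA-binding mutant asked which genes gain signal through DNA binding. In Fkh1-MYC 49 genes (20.2%) rose over fkh1-dbm-MYC and 68 (28.1%) fell, beside 18.8% and 14.5% of all features. In Fkh1-FLAG 23 genes (9.5%) rose over fkh1-dbm-FLAG and 66 (27.3%) fell, beside 11.3% and 6.74% of all features. The share that rose was close to that of all features, whereas the share that fell was larger with both tags. With all libraries in 1 fit, 21 rose and 6 fell with MYC, and 10 rose and 8 fell with FLAG. Over all features that fit gave 2272 rises and 359 falls with MYC, and 1244 and 41 with FLAG. Under TMM scaling 25 rose and 49 fell with FLAG, beside 2701 and 776 of all features. These comparisons share no library. Of the genes that rose, 21 were the same with both tags, 42.9% of the MYC list and 91.3% of the FLAG list, and of those that fell 48 were the same, 70.6% and 72.7%. A rise of at least 2-fold was called at 6 genes with MYC and 4 with FLAG, beside 3.31% and 1.85% of all features, and no feature of any kind was called lower by as much.

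SUF11 and YNCL0044W rose most with both tags. SUF11 had 6.95, 6.94 and 7.78 in Fkh1-MYC, against 1.22, 1.35 and 1.37 in fkh1-dbm-MYC, a log2 change of 2.65 ± 0.092 (adjusted p = 1.49e-40). With the other tag it had 4.88, 4.91 and 6.07 in Fkh1-FLAG, against 1.37, 1.09 and 1.35 in fkh1-dbm-FLAG, a change of 2.17 (adjusted p = 3.01e-32). In the mutant, this proline gene was thus at the level of an ordinary tRNA gene. YNCL0044W had 5.49, 5.33 and 5.29 in Fkh1-MYC, against 1.23, 1.48 and 1.41 in fkh1-dbm-MYC, a change of 2.13 ± 0.089 (adjusted p = 3.38e-35), and 4.0, 4.03 and 4.99 in Fkh1-FLAG, against 1.23, 1.24 and 1.22 in fkh1-dbm-FLAG, a change of 2.02 ± 0.090 (adjusted p = 3.55e-31). YNCN0004W, on chromosome XIV at 104805, had 4.62, 4.37 and 4.88 in Fkh1-MYC, against 1.32, 1.53 and 1.47 in fkh1-dbm-MYC, a change of 1.79 ± 0.088 (adjusted p = 7.02e-31). YNCK0011C, on chromosome XI at 308144, had 4.04, 4.29 and 4.45 in Fkh1-MYC, against 1.61, 1.57 and 1.58 in fkh1-dbm-MYC, a change of 1.42 (adjusted p = 1.37e-25). No library of an Fkh1 group overlapped the mutant at these 4 genes, which the naming rule largely ensures at SUF11 and YNCL0044W.

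Other genes gained less. YNCE0004C had 2.69, 2.62 and 2.88 in Fkh1-MYC, against 1.55, 1.53 and 1.61 in fkh1-dbm-MYC, a log2 change of 0.92 (adjusted p = 1.71e-15), and its change in Fkh1-FLAG over fkh1-dbm-FLAG was 0.48. Of the serine genes 3 of 4 rose in Fkh1-MYC, beside 18.8% of all features, with a family median change of 0.28. None of the 4 was called in Fkh1-FLAG over fkh1-dbm-FLAG, where the family median was 0.20, or in Fkh1-MYC (MOP) over MOP, where it was 0.17. The difference between tags, MYC minus FLAG, was 0.49 at SUF11 (adjusted p = 0.0161) and 0.44 at YNCE0004C (adjusted p = 0.0311). In all, 6 tRNA genes gained more with MYC, beside 2.03% of all features that differed in either direction, and none gained more with FLAG by edgeR, with 2 doing so at an unadjusted p under 0.05.

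Losses in Fkh1 cells were small and spread over many genes. YNCL0047W, a 96 bp gene of chromosome XII, had 1.08, 1.18 and 1.05 in Fkh1-MYC, against 1.58, 1.56 and 1.49 in fkh1-dbm-MYC, a log2 change of -0.49 ± 0.094 (adjusted p = 1.56e-05). YNCM0033C had a change of -0.54 ± 0.10 (adjusted p = 1.75e-05). TRN1, a proline gene of chromosome I, had 0.928, 0.759 and 0.949 in Fkh1-FLAG, against 1.40, 1.34 and 1.21 in fkh1-dbm-FLAG, a change of -0.56 ± 0.11 (adjusted p = 3.37e-05). The largest fall in Fkh1-FLAG, -0.59, was at YNCL0050C. Of the 10 genes with a close tRNA neighbour, which lie in pairs that share reads, 6 fell in Fkh1-MYC, beside 28.1% of the tRNA genes and 14.5% of all features. In the fit with all 60 libraries the genes that fell numbered 6 in Fkh1-MYC and 8 in Fkh1-FLAG, and those that rose 21 and 10. Over all features, 359 and 41 fell and 2272 and 1244 rose in that fit. Without fkh1-dbm-FLAG replicate 1, 41 genes fell in Fkh1-FLAG.

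The same Fkh1 proteins were also set against LexA in the strains that carry both. In Fkh1-MYC (MOP) 19 genes (7.85%) rose over MOP and 6 (2.48%) fell, beside 8.32% and 1.12% of all features. In Fkh1-FLAG (FLOP) 31 genes (12.8%) rose over FLOP and 28 (11.6%) fell, beside 12.3% and 6.55% of all features. Under TMM scaling the MYC counts were 17 and 10, a lower share of rises, beside 1608 and 344 over all features. The median change was -0.02 with MYC and -0.05 with FLAG, beside 0.01 and -0.02 over all features. Of the rises 15 were the same with both tags, 78.9% of the MYC list and 48.4% of the FLAG list. TRN1, TRT2 and YNCK0006C were the 3 genes that fell with both, 50% of the MYC list and 10.7% of the FLAG list.

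SUF11 and YNCL0044W again led. SUF11 had 6.23, 5.84 and 6.43 in Fkh1-MYC (MOP), against 1.39, 1.33 and 1.48 in MOP, a log2 change of 2.29 ± 0.16 (adjusted p = 4.43e-22), and rose by 1.68 in Fkh1-FLAG (FLOP) over FLOP (adjusted p = 2.20e-17). YNCL0044W had 4.63, 4.08 and 5.22 in Fkh1-MYC (MOP), against 1.19, 0.952 and 1.72 in MOP, a change of 1.99 ± 0.17 (adjusted p = 3.01e-17), and 3.27, 3.95 and 4.99 in Fkh1-FLAG (FLOP), against 1.5, 1.42 and 1.34 in FLOP, a change of 1.69 ± 0.12 (adjusted p = 2.03e-17). At both genes the Fkh1 libraries lay above every LexA library, which the naming rule largely ensures. YNCN0004W rose by 1.65 in Fkh1-MYC (MOP) and by 1.28 in Fkh1-FLAG (FLOP), and YNCK0011C by 1.52 in Fkh1-MYC (MOP) and by 1.29 in Fkh1-FLAG (FLOP).

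Of the genes that fell, EMT4, an elongator methionine gene, had 1.07, 1.01 and 1.06 in Fkh1-FLAG (FLOP), against 1.42, 1.44 and 1.42 in FLOP, a log2 change of -0.53 ± 0.091 (adjusted p = 5.76e-06). YNCL0050C changed by -0.58 in that comparison. TRT2 had 0.566, 0.767 and 0.711 in Fkh1-MYC (MOP), against 0.859, 1.01 and 1.27 in MOP, a change of -0.80 ± 0.23 (adjusted p = 0.00962). The call at TRT2 was lost without MOP replicate 3, where the change was -0.62 (adjusted p = 0.141), without Fkh1-MYC (MOP) replicate 1, where it was -0.73 (adjusted p = 0.0574), and with an interval of 200 bp, where it was -0.97 (adjusted p = 0.0636). YNCK0006C had the largest fall there, -0.86. Counts of the fallen genes moved most with single libraries. In Fkh1-MYC (MOP) 12 fell without MOP replicate 2 and 3 without either MOP replicate 3 or Fkh1-MYC (MOP) replicate 3, without which last library 11 rose, and in Fkh1-FLAG (FLOP) 18 fell without FLOP replicate 1 or 2 and 12 without Fkh1-FLAG (FLOP) replicate 2, while 19 rose without FLOP replicate 3.

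In arrested cells the tags gave different counts. In G1 Fkh1-MYC (MOP) 16 genes (6.61%) rose over G1 MOP and 42 (17.4%) fell, beside 12.1% and 2.75% of all features, and the median change was -0.31 for tRNA genes and 0.03 for all features. In G1 Fkh1-FLAG (FLOP) 4 genes (1.65%) rose over G1 FLOP and none fell by edgeR or DESeq2, beside 2.38% and 0.0436% of all features. At an unadjusted p under 0.05, 16 were higher and 0 lower with FLAG. The 4 genes were SUF11, YNCL0044W, YNCK0011C and YNCH0016C, and 1 or 2 genes were called without G1 FLOP replicate 1, G1 FLOP replicate 2 or G1 Fkh1-FLAG (FLOP) replicate 2. Without G1 Fkh1-MYC (MOP) replicate 3, 22 genes fell with MYC.

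SUF11 had 7.39, 8.91 and 8.56 in G1 Fkh1-MYC (MOP), against 1.75, 1.37 and 1.44 in G1 MOP, a log2 change of 2.50 ± 0.20 (adjusted p = 2.19e-18), and 2.32, 3.15 and 2.25 in G1 Fkh1-FLAG (FLOP), against 1.03, 1.31 and 1.47 in G1 FLOP, a change of 1.02 ± 0.16 (adjusted p = 8.94e-07). YNCL0044W reached the highest signal of any tRNA gene, 11.5, 10.3 and 10.4 in G1 Fkh1-MYC (MOP), against 2.20, 1.95 and 2.61 in G1 MOP, a change of 2.29 ± 0.19 (adjusted p = 5.17e-17). With FLAG it had 1.76, 2.07 and 2.02 in G1 Fkh1-FLAG (FLOP), against 1.1, 1.52 and 1.31 in G1 FLOP, a change of 0.70 ± 0.15 (adjusted p = 0.0012). The groups did not overlap at either gene with either tag, which the naming rule largely ensures. The FLAG call at YNCL0044W was lost without G1 FLOP replicate 1, where the change was 0.58 (adjusted p = 0.0978). YNCK0011C changed by 1.49 in G1 Fkh1-MYC (MOP) and by 0.50 in G1 Fkh1-FLAG (FLOP) (adjusted p = 0.0465), and YNCN0004W by 1.5 in G1 Fkh1-MYC (MOP) (adjusted p = 1.07e-09) and by 0.48 in G1 Fkh1-FLAG (FLOP) (adjusted p = 0.0761). At YNCK0011C the highest window in G1 Fkh1-MYC (MOP), 8.16, lay 975 bp downstream of the gene centre, with 5.32 in the central 200 bp and 4.26 in the flanks.

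Whether the Fkh1 effect differs between cultures was tested directly for each tag. With FLAG, the effect in G1 minus that in unsynchronized cells was -0.99 at YNCL0044W (adjusted p = 0.00363), -0.80 at YNCN0004W (adjusted p = 0.0217) and -0.79 at YNCK0011C (adjusted p = 0.00965), and in all 4 tRNA genes had a smaller and 1 a larger effect in G1, beside 1.40% of all features in either direction. With MYC the effect was smaller in G1 at 2 genes and larger at none by edgeR, beside 1.65% of all features, with 4 larger at an unadjusted p under 0.05, and 1 of the 2 was YNCB0004W, at -1.21 (adjusted p = 0.00756). YNCB0004W, on chromosome II at 197494 and 62 bp from another tRNA gene, had 0.835, 0.786 and 0.874 in G1 Fkh1-MYC (MOP), against 1.92, 1.55 and 2.47 in G1 MOP, a change of -1.24 ± 0.23 (adjusted p = 1.42e-05). YNCB0011C had 1.17, 0.552 and 0.793 in G1 Fkh1-MYC (MOP), against 2.07, 1.36 and 1.48 in G1 MOP, a change of -1.13 ± 0.25 (adjusted p = 0.000404). At both genes the Fkh1 libraries were below all of the G1 MOP libraries, which the naming rule largely ensures. Of the 10 genes with a close tRNA neighbour, which lie in pairs that share reads, 6 fell and 1 rose in G1 Fkh1-MYC (MOP). Of all tRNA genes 17.4% fell there, and of all features 2.75%.

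**Figure D5:**
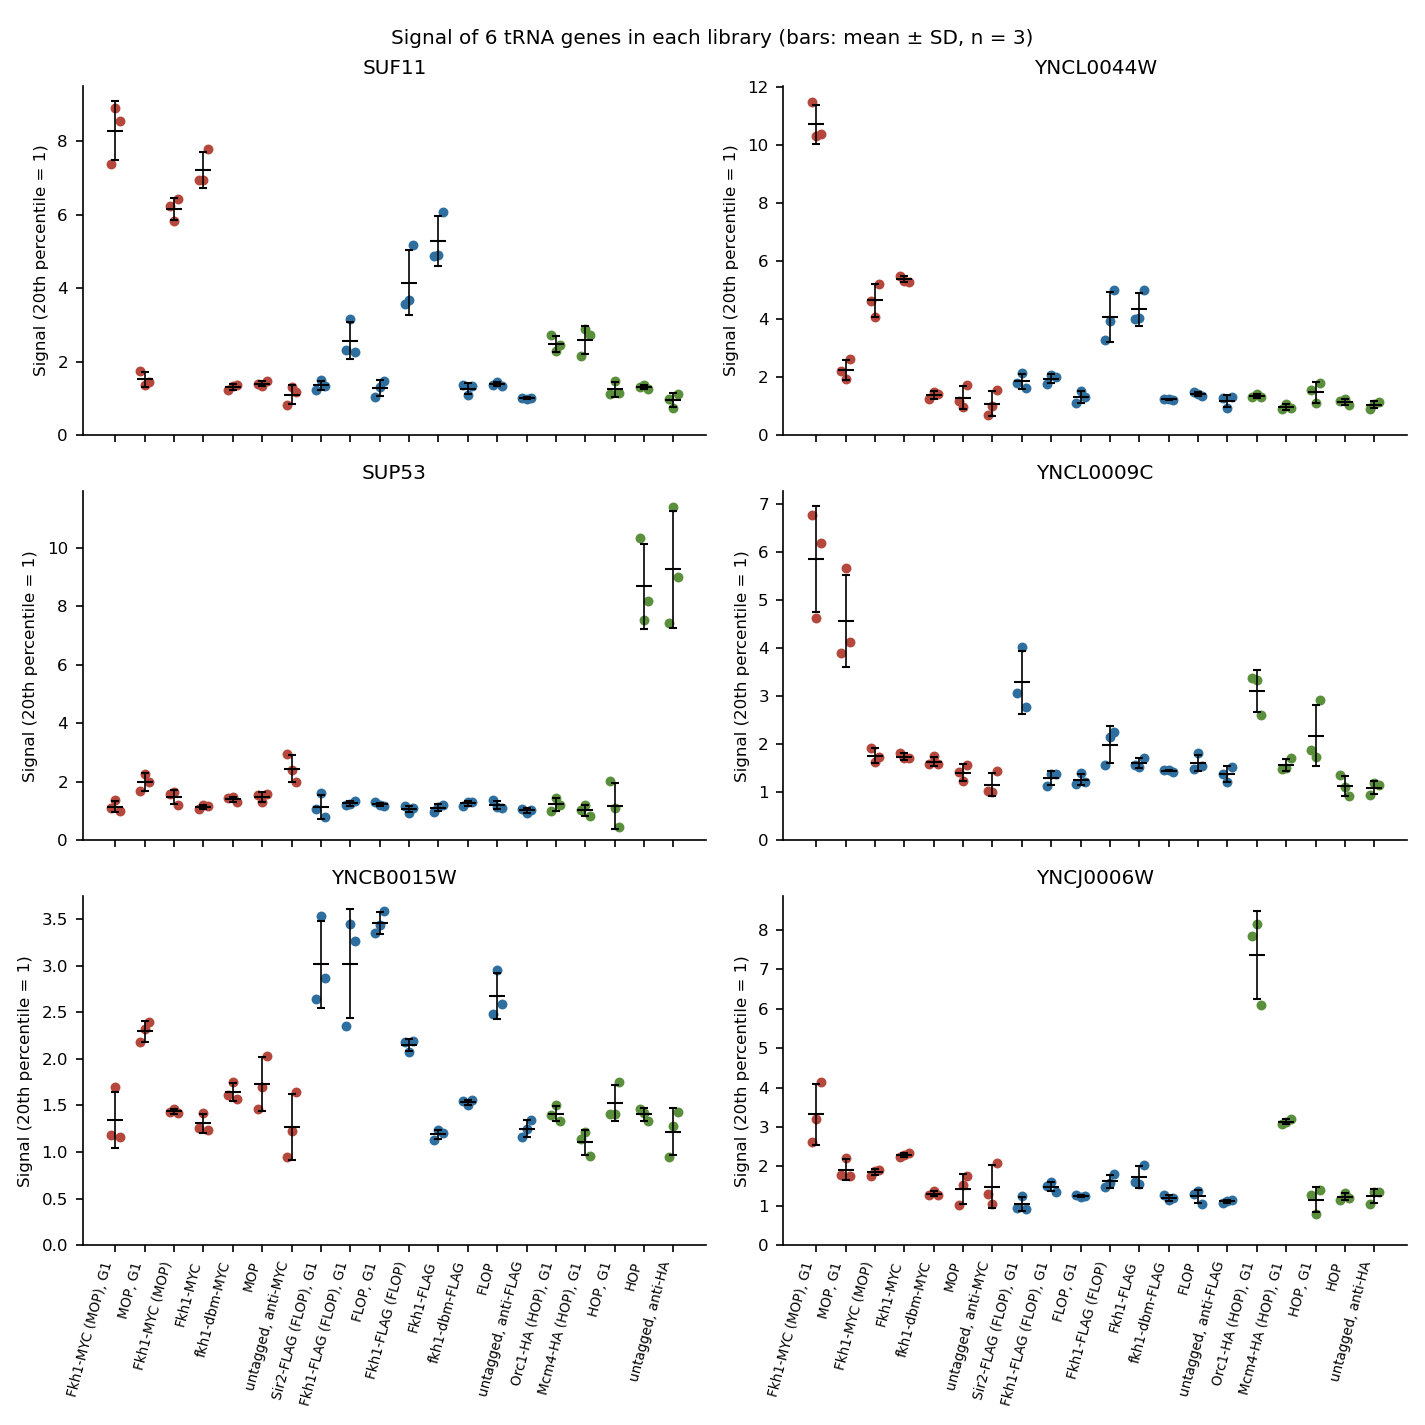
Signal of 6 tRNA genes (y axis, in units of the 20th percentile of the library) in every library of the 20 groups (x axis), with points for libraries and the mean ± SD of 3. SUF11 and YNCL0044W have means of at least 4.07 in G1 Fkh1-MYC (MOP) and the 4 unsynchronized groups with intact Fkh1 and of at most 2.59 in the other groups, SUP53 is high in HOP and untagged anti-HA, and YNCJ0006W is high in G1 Orc1-HA (HOP), at 7.85, 8.14 and 6.10.

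Orc1 and Mcm4, both origin proteins, gave opposite shifts over the set of tRNA genes. In G1 Orc1-HA (HOP) 38 genes (15.7%) rose over G1 HOP and 4 (1.65%) fell, beside 6.67% and 4.92% of all features. The median was 0.12 for tRNA genes and -0.11 for all features. In G1 Mcm4-HA (HOP) 12 genes (4.96%) rose over G1 HOP and 53 (21.9%) fell, beside 4.21% and 5.89% of all features, with medians of -0.40 and -0.10. Both comparisons use the same G1 HOP libraries. Under TMM scaling 14 tRNA genes rose and 28 fell in G1 Mcm4-HA (HOP), beside 1071 and 702 of all features. The number of tRNA genes that fell was 32 without G1 HOP replicate 1 and 27, 34 and 31 without G1 Mcm4-HA (HOP) replicates 1, 2 and 3. In G1 Orc1-HA (HOP) 2 fell without G1 HOP replicate 1 or 3 or G1 Orc1-HA (HOP) replicate 1 or 2. With an interval of 200 bp 16 rose there, beside 1038 of all features.

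YNCJ0006W, on chromosome X at 204735 and 499 bp from the start of MDV1, a gene of mitochondrial fission, had the largest rise with Orc1. Its signals were 7.85, 8.14 and 6.10 in G1 Orc1-HA (HOP), against 1.28, 0.797 and 1.40 in G1 HOP, a log2 change of 2.78 ± 0.19 (adjusted p = 6.81e-20). In G1 Mcm4-HA (HOP) it had 3.08, 3.13 and 3.19, a change of 1.44 over G1 HOP (adjusted p = 3.27e-09), so that YNCJ0006W was raised with both proteins. YNCI0002W, on chromosome IX at 175031, had 7.05, 6.34 and 5.94 in G1 Orc1-HA (HOP), against 1.37, 1.62 and 1.04 in G1 HOP, a change of 2.47 ± 0.17 (adjusted p = 3.90e-19), while its change with Mcm4 was 0.47 (adjusted p = 0.0949). YNCL0040W, on chromosome XII at 793918, had 6.27, 5.32 and 4.79 in G1 Orc1-HA (HOP), against 1.32, 1.22 and 1.12 in G1 HOP, a change of 2.29 (adjusted p = 1.54e-17). All 3 genes were well separated from G1 HOP, which the naming rule largely ensures at YNCJ0006W and YNCI0002W. In G1 Orc1-HA (HOP) the highest window lay beside each gene. It was 13.3 at YNCJ0006W, 175 bp upstream of the centre, with 8.08 in the central 200 bp. At YNCI0002W it was 10.8, 125 bp downstream, with 8.29 in the centre, and at YNCL0040W 11, 225 bp downstream, with 6.01. The study raises origins close to tRNA genes as a possible reason for Orc1 signal there, which was not tested here.

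SUP11, a tyrosine gene of chromosome VI at 167437, and YNCO0002W, on chromosome XV at 113802, rose most with Mcm4. SUP11 had 3.74, 3.06 and 3.74 in G1 Mcm4-HA (HOP), against 0.964, 1.03 and 1.14 in G1 HOP, a log2 change of 1.98 ± 0.17 (adjusted p = 4.29e-14), and a change of 0.68 in G1 Orc1-HA (HOP) (adjusted p = 0.0243). YNCO0002W had 2.82, 2.59 and 2.56 in G1 Mcm4-HA (HOP), against 1.03, 1.3 and 1.05 in G1 HOP, a change of 1.45 ± 0.18 (adjusted p = 1.27e-09), and 5.0, 4.17 and 3.24 in G1 Orc1-HA (HOP), a change of 2.10 (adjusted p = 5.00e-15). The highest window at SUP11 in G1 Mcm4-HA (HOP), 6.47, lay 175 bp downstream of the gene centre, with 3.87 in the central 200 bp. At YNCO0002W in G1 Orc1-HA (HOP) it was 6.63, also 175 bp downstream, with 4.53 in the central 200 bp. Over their 500 bp both genes rose with both proteins. SUF11 did as well, with 2.73, 2.28 and 2.45 in G1 Orc1-HA (HOP) and 2.16, 2.89 and 2.72 in G1 Mcm4-HA (HOP), against 1.12, 1.47 and 1.14 in G1 HOP (adjusted p = 3.25e-05 for Orc1 and 2.63e-05 for Mcm4). Of the serine genes 3 of 4 rose with Orc1, beside 6.67% of all features, with a family median of 0.74, while 0 of 4 were called with Mcm4, with a family median of -0.10. SUP19 had 2.42, 2.71 and 3.72 in G1 Orc1-HA (HOP), against 1.41, 1.49 and 1.07 in G1 HOP, a change of 0.93 (adjusted p = 0.00013). The tyrosine gene SUP8 had 3.21, 2.45 and 2.19 in G1 Orc1-HA (HOP), against 1.24, 1.25 and 1.45 in G1 HOP, a change of 0.89 (adjusted p = 0.000236).

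Many more tRNA genes were low with Mcm4 than high. YNCK0007W, on chromosome XI at 202999 and 470 bp from the start of PGM1, which encodes phosphoglucomutase, had 0.571, 0.597 and 0.650 in G1 Mcm4-HA (HOP), against 1.52, 1.42 and 1.44 in G1 HOP, a log2 change of -1.68 ± 0.22 (adjusted p = 6.79e-09). With Orc1 it had 0.919, 1.11 and 1.12 in G1 Orc1-HA (HOP), a change of -0.83 ± 0.21 over G1 HOP (adjusted p = 0.00309), a call that was lost without G1 HOP replicate 1, where the change was -0.67 (adjusted p = 0.0614), and with an interval of 200 bp, where it was -0.47 (adjusted p = 0.302). YNCP0019W had 0.703, 0.671 and 0.533 in G1 Mcm4-HA (HOP), against 1.93, 1.64 and 1.24 in G1 HOP, a change of -1.38 ± 0.22 (adjusted p = 1.90e-06). The signal of these genes in G1 Mcm4-HA (HOP) was below the background level of 1. YNCN0008C changed by -0.85 in G1 Orc1-HA (HOP). That call was lost with an interval of 200 bp, where the change was -0.73 (adjusted p = 0.259), without G1 HOP replicate 3, where it was -0.68 (adjusted p = 0.121), and without G1 Orc1-HA (HOP) replicates 2 and 3, where it was -0.77 (adjusted p = 0.0869) and -0.75 (adjusted p = 0.0998).

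For Sir2, the 500 bp intervals centred on tRNA genes moved down relative to the genome. In G1 Sir2-FLAG (FLOP) 15 genes (6.20%) rose over G1 FLOP and 53 (21.9%) fell, beside 22.9% and 7.58% of all features, and the median was -0.13 for tRNA genes while that of all features was 0.17. Under TMM scaling, which removes the shift of all features, 2814 of the 20661 features rose and 2811 fell, and of the tRNA genes 8 rose and 98 fell. The number that rose was 5 and 7 without G1 FLOP replicates 1 and 2 and 9 without either G1 Sir2-FLAG (FLOP) replicate 1 or 2. The number that fell was 34 and 31 without G1 FLOP replicates 1 and 2, 35 without G1 Sir2-FLAG (FLOP) replicate 1 and 11 with an interval of 200 bp, beside 1318 of all features with that interval.

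The largest rises with Sir2 were at genes near the rDNA and near HMR. YNCL0009C, on chromosome XII at 448650, is 2854 bp from RDN37-1, the first rRNA unit of the rDNA array. It had 3.05, 4.03 and 2.76 in G1 Sir2-FLAG (FLOP), against 1.17, 1.39 and 1.22 in G1 FLOP, a log2 change of 1.44 ± 0.20 (adjusted p = 5.91e-08). YNCC0014W, beside HMR, had 2.86, 3.24 and 2.24 in G1 Sir2-FLAG (FLOP), against 1.25, 1.40 and 1.57 in G1 FLOP, a change of 1.00 ± 0.20 (adjusted p = 8.50e-05). It also had 4.03, 4.42 and 3.45 in G1 Orc1-HA (HOP), against 1.34, 1.49 and 1.51 in G1 HOP, a change of 1.44 (adjusted p = 6.27e-10). In G1 Orc1-HA (HOP) the highest window, 8.19, lay 725 bp upstream of YNCC0014W, with 4.56 in the central 200 bp and 4.88 in the flanks. Of the 21 genes of chromosome XII 8 rose with Sir2, beside 22.9% of all features, with a median of 0.24. Relative to all tRNA genes these 21 stood at 0.28 in G1 Sir2-FLAG (FLOP), against -0.03 in G1 FLOP, and the median bin of the chromosome, relative to all bins, stood at 0.33 in G1 Sir2-FLAG (FLOP), against 0.00 in G1 FLOP, a shift of like size. YNCC0001C fell, with 0.431, 0.228 and 0.518 in G1 Sir2-FLAG (FLOP), against 0.697, 0.909 and 0.809 in G1 FLOP, a change of -1.09 ± 0.23 (adjusted p = 0.000189) that was -0.54 with an interval of 200 bp (adjusted p = 0.171). YNCE0008C had 0.626, 0.654 and 0.740 in G1 Sir2-FLAG (FLOP), against 1.23, 1.07 and 1.37 in G1 FLOP, a change of -0.86 ± 0.15 (adjusted p = 1.48e-05).

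Arrested and unsynchronized LexA cells differed at many tRNA genes. In G1 MOP 88 genes (36.4%) rose over MOP and none fell by edgeR, beside 16.9% and 3.06% of all features, with 3 lower at an unadjusted p under 0.05 and 1 lower by DESeq2. The median change was 0.38 for tRNA genes, while all features shifted by 0.15. In G1 FLOP 27 genes (11.2%) rose over FLOP and 9 (3.72%) fell, beside 16.5% and 4.67% of all features, with medians of 0.06 and 0.08. The tRNA median turned to -0.01 under TMM scaling. A difference between the tags was not tested. Under TMM scaling 58 rose and 4 fell in G1 MOP, beside 2028 and 1362 of all features, and 18 rose and 11 fell in G1 FLOP, beside 2358 and 1841. Without MOP replicate 2, 54 genes rose in G1 MOP. In G1 FLOP 13 genes rose without any 1 of the 3 FLOP libraries, 3 fell without FLOP replicate 2 and 5 fell without G1 FLOP replicate 1.

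Of the 21 genes of chromosome XII, 18 rose in G1 MOP over MOP, beside 36.4% of the tRNA genes and 16.9% of all features, with a median of 0.87. Relative to all tRNA genes these 21 stood at 0.57 in G1 MOP, against 0.02 in MOP. The median bin of the chromosome, relative to all bins, stood at 0.46 in G1 MOP, against 0.04 in MOP. YNCL0009C had 3.89, 5.66 and 4.13 in G1 MOP, against 1.43, 1.23 and 1.57 in MOP, a log2 change of 1.68 ± 0.20 (adjusted p = 5.38e-10). YNCL0047W had 2.73, 3.03 and 3.56 in G1 MOP, against 1.19, 1.0 and 1.6 in MOP, a change of 1.38 ± 0.20 (adjusted p = 1.59e-07). YNCL0040W changed by 1.1 (adjusted p = 7.89e-06). The libraries of G1 MOP and MOP did not overlap at YNCL0009C and YNCL0047W, which the naming rule largely ensures. The raised signal of all bins of chromosome XII stands beside these values. SUP8, a tyrosine gene on another chromosome, also rose, by 0.97 (adjusted p = 0.000191).

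In G1 FLOP the changes were smaller and went both ways. YNCI0003C had 2.26, 2.63 and 2.72 in G1 FLOP, against 1.74, 1.79 and 1.70 in FLOP, a log2 change of 0.65 ± 0.11 (adjusted p = 1.74e-05). YNCG0017W had 1.88, 2.03 and 2.10 in G1 FLOP, against 1.43, 1.44 and 1.47 in FLOP, a change of 0.57 ± 0.11 (adjusted p = 0.000136). The pair on chromosome II also gained, with 3.35, 3.43 and 3.58 at YNCB0015W in G1 FLOP, against 2.48, 2.96 and 2.58 in FLOP, a change of 0.53 (adjusted p = 0.000596). YNCG0041W, on chromosome VII, had 0.972, 0.923 and 0.868 in G1 FLOP, against 1.40, 1.42 and 1.28 in FLOP, a change of -0.62 ± 0.12 (adjusted p = 9.32e-05), and YNCL0032C changed by -0.58. At YNCI0003C, YNCG0017W, YNCB0015W and YNCG0041W the arrested libraries did not overlap the unsynchronized ones, which the naming rule largely ensures at all but YNCB0015W. Of the genes of chromosome XII 6 of 21 fell in G1 FLOP, beside 4.67% of all features, with a median of -0.14. Relative to all tRNA genes these 21 stood at -0.03 in G1 FLOP, against 0.19 in FLOP, and the median bin of the chromosome, relative to all bins, at 0.00 in G1 FLOP, against 0.20 in FLOP, a shift of like size.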

How the data were processed

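ChIP-seq was made in 60 libraries, 3 in each of 20 groups, and deposited as a count per 50 bp window of the genome. After demultiplexing with fastq-multx, the authors mapped paired ends of 150 bp by Bowtie2. SAMtools served to drop duplicates and bedtools to count. The deposited counts are whole numbers without normalization, and a read counts in each window it overlaps. How reads with several matches were placed is not given in the sources used here.

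Levels were the smoothed counts divided by the 20th percentile of the library. For tests, raw counts were summed over the 500 bp centred on each of 245 tRNA genes and over 20483 other bins of 500 bp, 20728 features in all, and fitted with edgeR 4.0.16 (R 4.3.3) by the quasi-likelihood test, on the libraries of the groups compared. Library sizes were the 20th percentiles. A feature was kept where 3 or more libraries held 10 counts or more, p-values were adjusted over all of them after Benjamini and Hochberg, and a feature was called at an adjusted p under 0.05. Each change was also checked in all 9 pairs of libraries. Changes are log2 fold changes with their SE, two-sided. There were 16 comparisons and 5 tests of a difference between comparisons. The alternatives were TMM scaling, DESeq2 1.42.0 with the same and with its own size factors, no filter, all 60 libraries in 1 fit, the replicate number as a block, an interval of 200 bp and leaving out each library. Scripts were tested on simulated counts. Levels and figures were made with Python 3.11.15, numpy 2.4.6, pandas 2.3.3 and matplotlib 3.10.9.

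The genes named are the 6 highest and 6 lowest by mean level, the 3 most variable between groups, and, for each comparison, up to 2 with the largest rise and 2 with the largest fall among called genes that moved the same way in 9 of 9 pairs. Lack of overlap between groups at genes named for a comparison follows largely from this rule and adds nothing to their calls. Genes of identical sequence could not be grouped because no sequence was used here. The members and lists were chosen with earlier results of these data known, and genes named outside the rule, such as SUP19, SUP8, YNCE0010W, YNCL0004C and YNCB0016W, were chosen after their values were seen. Families came from 34 symbols of known amino acid. The labels give groups the same replicate numbers. Same-numbered libraries did not deviate together in any comparison, where the correlations of deviations ran from -0.304 to 0.14, so the numbers were not taken as pairs.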

Additional observations from a re-analysis of the deposited data

Results flagged for a closer look

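The effect of LexA expression differed between tags at several tRNA genes, each difference tested as an interaction in edgeR with p-values adjusted over all features. For HA minus FLAG it was 1.21 on the log2 scale at YNCE0005W (adjusted p = 4.41e-11), 1.02 at YNCE0004C (adjusted p = 9.83e-09), 0.71 at YNCE0021C (adjusted p = 0.0008) and 0.65 at YNCC0001C (adjusted p = 0.0252). The HA effect was the smaller at YNCB0015W, by -0.94 (adjusted p = 2.01e-07), at YNCB0016W, by -0.84 (adjusted p = 4.05e-06), and at SUP53, by -0.44 (adjusted p = 0.0441). For MYC minus FLAG the difference was 1.15 at YNCE0004C (adjusted p = 0.00623), 0.99 at YNCE0005W (adjusted p = 0.00709), 0.88 at YNCG0041W (adjusted p = 0.00749) and -1.06 at SUP53 (adjusted p = 0.000729). Both contrasts share the FLOP and untagged anti-FLAG libraries. YNCE0004C and YNCE0005W were named for their falls in FLOP, which both contrasts subtract, so their large differences follow in part from that choice. The same holds for YNCB0015W and YNCB0016W, named for rises in FLOP, and for YNCE0021C and YNCC0001C, named for rises in HOP. SUP53 was named in part for its fall from untagged anti-MYC, which MYC minus FLAG also uses. Over the 242 genes, 9 had a larger and 12 a smaller effect with HA, beside 13.7% of all features that differed. For MYC the counts were 4 and 4, beside 6.07%. SUP53 lies in the block beside LEU2, and the highest signal near YNCE0005W in untagged anti-FLAG lay 625 bp upstream of the gene centre.

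The effect of intact over mutant Fkh1 was larger with MYC than with FLAG at SUF11, by 0.49 (adjusted p = 0.0161), and at YNCE0004C, by 0.44 (adjusted p = 0.0311). The effect of Fkh1-FLAG over FLOP was smaller in G1 than in unsynchronized cells at YNCL0044W, by -0.99 (adjusted p = 0.00363), at YNCN0004W, by -0.80 (adjusted p = 0.0217), and at YNCK0011C, by -0.79 (adjusted p = 0.00965). The effect of Fkh1-MYC over MOP was lower in G1 at YNCB0004W, by -1.21 (adjusted p = 0.00756). The named genes were chosen for their changes in single comparisons, so these differences are a description of those genes.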

How the results depend on the processing

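No gene named for a comparison by the rule turned its sign in that comparison under the alternatives run. Changes given here for other genes or in other comparisons, such as YNCE0005W in HOP or SUP8, were not checked in this way. The median change over tRNA genes did turn in 2 comparisons where it was near 0. In G1 FLOP over FLOP it was 0.06 and became -0.01 with TMM and -0.02 with DESeq2's own size factors, and in Fkh1-MYC (MOP) over MOP it was -0.02 and became 0.00 with the replicate block. In Fkh1-MYC over fkh1-dbm-MYC falls outnumbered rises, 68 to 49, but rises outnumbered falls, 21 to 6, with all libraries in 1 fit. Calls over all features moved the same way. Rises were 41.9% of the calls at tRNA genes and 56.5% of those over all features in the main fit. With all libraries in 1 fit they were 77.8% and 86.4%, so tRNA genes had the lower share of rises in both. Of 224 counts of called genes under alternatives other than leaving out a library, 170 stayed within 1.5 times the reported count and 54 moved. For single genes in the comparisons they were named for, 350 values kept their call and 7 lost it. For the SD between genes, 69 values under other settings of the smoothing, scaling or interval stayed within the spread between replicates and 31 moved. The scatter between the untagged anti-MYC libraries, where 36.5% of the variance lay between genes, limits the comparisons that use them.

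With the 200 bp interval, genes that rose numbered 25 in Fkh1-MYC over fkh1-dbm-MYC, 12 in Fkh1-MYC (MOP), 9 in G1 Fkh1-MYC (MOP), 16 in G1 Orc1-HA (HOP) and 15 in G1 FLOP, and genes that fell numbered 0 in fkh1-dbm-MYC, 17 in Fkh1-FLAG (FLOP), 27 in G1 Fkh1-MYC (MOP), 2 in G1 Orc1-HA (HOP), 35 in G1 Mcm4-HA (HOP), 11 in G1 Sir2-FLAG (FLOP) and 5 in G1 FLOP. With DESeq2, 1 rose in MOP, 47 in fkh1-dbm-MYC and 7 in G1 Fkh1-FLAG (FLOP), and 3 fell in fkh1-dbm-MYC and 1 in G1 MOP. With its own size factors, 42 rose in fkh1-dbm-MYC and 8 in G1 Fkh1-FLAG (FLOP), and 2 fell in G1 Orc1-HA (HOP), 110 in G1 Sir2-FLAG (FLOP), 4 in G1 MOP and 14 in G1 FLOP. With TMM, 37 rose in fkh1-dbm-MYC, 7 in G1 Fkh1-FLAG (FLOP), 8 in G1 Sir2-FLAG (FLOP) and 58 in G1 MOP, and 10 fell in Fkh1-MYC (MOP), 2 in G1 Orc1-HA (HOP), 28 in G1 Mcm4-HA (HOP), 98 in G1 Sir2-FLAG (FLOP) and 4 in G1 MOP. With all 60 libraries in 1 fit, 11 rose in MOP, 44 in FLOP, 3 in HOP, 45 in fkh1-dbm-MYC, 19 in fkh1-dbm-FLAG, 21 in Fkh1-MYC, 10 in Fkh1-FLAG, 11 in Fkh1-FLAG (FLOP) and 10 in G1 FLOP, and 2 fell in fkh1-dbm-MYC, 6 in Fkh1-MYC, 8 in Fkh1-FLAG, 10 in Fkh1-MYC (MOP), 4 in Fkh1-FLAG (FLOP), 89 in G1 Fkh1-MYC (MOP), 9 in G1 Orc1-HA (HOP), 106 in G1 Mcm4-HA (HOP), 2 in G1 MOP and 4 in G1 FLOP. The counts over all features changed with these settings too, so these counts of tRNA genes are no measure of a shift of their own. The causes were not tested. Dropping the filter moved no count by over 1.5 times.

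With the replicate number as a block, 1 gene rose in MOP, 29 in fkh1-dbm-MYC and 7 in G1 Sir2-FLAG (FLOP), the block moved no other count by over 1.5 times, and the libraries share only a number.

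Leaving out 1 library at a time gave these ranges of genes that rose: 0 to 3 in MOP, 79 to 116 in FLOP, 23 to 67 in HOP, 2 to 48 in fkh1-dbm-MYC, 80 to 118 in fkh1-dbm-FLAG, 11 to 21 in Fkh1-MYC (MOP), 19 to 32 in Fkh1-FLAG (FLOP), 1 to 6 in G1 Fkh1-FLAG (FLOP), 5 to 15 in G1 Sir2-FLAG (FLOP), 54 to 85 in G1 MOP and 13 to 27 in G1 FLOP. Genes that fell ranged from 1 to 3 in fkh1-dbm-MYC, 41 to 69 in Fkh1-FLAG, 3 to 12 in Fkh1-MYC (MOP), 12 to 29 in Fkh1-FLAG (FLOP), 22 to 43 in G1 Fkh1-MYC (MOP), 2 to 3 in G1 Orc1-HA (HOP), 27 to 53 in G1 Mcm4-HA (HOP), 31 to 47 in G1 Sir2-FLAG (FLOP) and 3 to 9 in G1 FLOP.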
